A study of Mus musculus with 18 samples.

Results

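The levels of 10 genes that mark the connective tissue and vessel wall of the brain were followed in mouse cortex. The 10 were taken by symbol, as known markers, from the 55385 genes of the count table, and each symbol matched 1 gene. The low level of these markers in 1 wild-type library was known when they were taken. Of these, 7 mark fibroblasts of the meninges (Dcn, Lum, Col1a1, Col1a2, Col3a1, Igf2 and Slc6a13) and 3 mark mural cells, the pericytes and smooth muscle cells of vessels (Pdgfrb, Rgs5 and Acta2). All 10 passed the filter on low counts that left 18717 genes for testing. Polyadenylated RNA was sequenced from 6 Dp16_2xIFNRs, 6 Dp16 and 6 WT (wild-type C57BL/6J) mice, 3 females and 3 males of each genotype, aged 17.1 to 18.0 weeks and given no treatment according to the labels. Dp16 mice carry a duplicated segment of chromosome 16 that corresponds to part of human chromosome 21, so its genes are present in 3 copies, and all of their tissues share that state. Dp16_2xIFNRs mice carry the same duplication with the interferon receptor genes inside it returned to 2 copies. None of the 10 genes lies in the segment, so all 10 are present in 2 copies in every genotype. Comparing Dp16 with WT addresses what the duplication changes in these genes, and comparing Dp16_2xIFNRs with Dp16 what the receptor genes add. Nothing in the labels says how much of the meninges was kept on the dissected cortex.

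The meninges are sheets of fibroblasts and vessels that cover the cortex and follow its arteries inward. Their fibroblasts secrete fibrillar collagen, in which chains of Col1a1 and Col1a2 twist together into type I collagen and chains of Col3a1 form type III collagen. They also secrete small leucine-rich proteoglycans such as decorin (Dcn) and lumican (Lum), which bind collagen fibrils, and the growth factor IGF2. Pericytes wrap capillaries and depend on signalling through the receptor PDGFRB, while smooth muscle cells of arteries contract with the actin encoded by Acta2. In a piece of cortex these cells are a small minority, and in bulk RNA fewer cells of a type and less RNA per cell cannot be told apart.

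Each Dp16_2xIFNRs library held 47912340 to 61150849 counts, each Dp16 library 46346019 to 67281449 and each WT library 47554526 to 52006799. That library is WT replicate 6, from a male. As a description, since it was known to be low when the genes were taken, it was the lowest of all 18 libraries for 6 of the 10 genes and the second lowest for 2 more. The comparisons of the 10 genes are given with and without it. The cortex label was checked with 11 genes of cortical excitatory neurons, all detected. In WT replicate 6 these had a median log2 difference of 0.092 from the median of the other 5 WT libraries and a summed level of 1361 RPKM, against 1445 to 1623 in those 5. No gene on any of the lists used was at 0 in all libraries.

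The 10 genes covered a wide range of levels. By the median RPKM (counts scaled to gene length and library total, so that genes can be compared) over the 18 libraries, Rgs5 led with 31.4, a value over that of every other member in every library. It encodes a regulator of G protein signalling that is concentrated in pericytes. Acta2 at 7.70, Dcn at 6.99 and Pdgfrb at 6.69 came next and did not separate, since Acta2 exceeded Dcn in 13 of 18 libraries and Dcn exceeded Pdgfrb in 14 of 18. Below them stood Slc6a13 at 4.12, Col1a2 at 3.40, Col1a1 at 2.30 and Igf2 at 1.03. Pdgfrb exceeded Slc6a13 in 18 of 18 libraries, Slc6a13 exceeded Col1a2 in 17, and Col1a2 exceeded Col1a1, Col1a1 exceeded Igf2 and Igf2 exceeded Col3a1 in 18 each. Col3a1 at 0.714 and Lum at 0.658 closed the order, with Col3a1 the higher in 13 of 18 libraries. Across all members except Rgs5, the ranges of neighbours in this order overlapped.

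**Figure D1:**
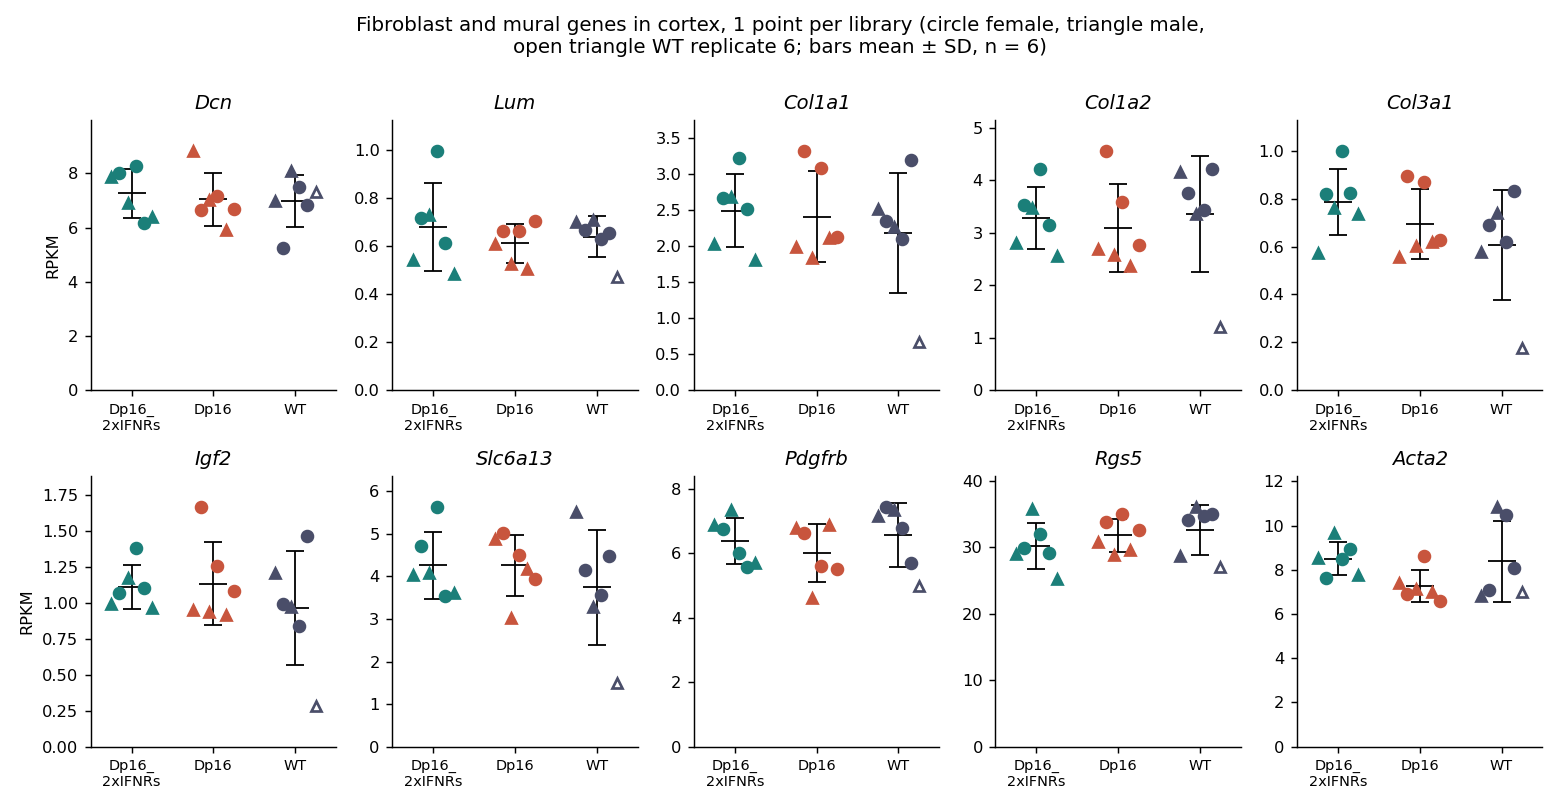
RPKM of the 10 genes (y axis, from 0) in each of 18 libraries, with Dp16_2xIFNRs, Dp16 and WT from left to right, females as circles, males as triangles and WT replicate 6 as an open triangle. Bars give mean ± SD (n = 6). The genotypes overlap for every gene, and WT replicate 6 is the lowest point for Lum, Col1a1, Col1a2, Col3a1, Igf2 and Slc6a13 but not for Dcn.

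Among the collagen genes, Col1a1 (chromosome 11, 94936224 to 94953042, GRCm38) had from 1.80 through a median of 2.59 to 3.21 RPKM in Dp16_2xIFNRs, from 1.83 through 2.12 to 3.32 in Dp16 and from 0.667 through 2.30 to 3.19 in WT. WT replicate 6 alone set the low end, and the other 5 WT libraries lay between 2.10 and 3.19. Col1a2 (chromosome 6, 4504814 to 4541544) had from 2.55 through 3.31 to 4.21 RPKM in Dp16_2xIFNRs, from 2.36 through 2.73 to 4.56 in Dp16 and from 1.21 through 3.60 to 4.21 in WT. Here the other 5 WT libraries lay between 3.37 and 4.21, above 4 of the 6 Dp16 libraries. Col3a1 (chromosome 1, 45311538 to 45349706) had from 0.572 through 0.792 to 0.999 RPKM in Dp16_2xIFNRs, from 0.555 through 0.623 to 0.893 in Dp16 and from 0.178 through 0.656 to 0.833 in WT. Its groups overlapped as well, and its lowest WT value again belonged to replicate 6, with 47 counts.

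Col1a2 and Col3a1, collagen genes that each varied with the mean of the other fibroblast genes, are shown beside Rgs5, the highest expressed member. Each is given with the 250 bases before its RefSeq start on the plus strand (GRCm38.p6, sequence from RefSeq). The windows are chr6:4505368-4505617 for Col1a2, chr1:45311288-45311537 for Col3a1 and chr1:169655251-169655500 for Rgs5. The Col1a2 window lies inside the gene span given above, so its RefSeq start is not the start of that span. Capitals mark matches to TATAAA or CCAAT on either strand.
Col1a2: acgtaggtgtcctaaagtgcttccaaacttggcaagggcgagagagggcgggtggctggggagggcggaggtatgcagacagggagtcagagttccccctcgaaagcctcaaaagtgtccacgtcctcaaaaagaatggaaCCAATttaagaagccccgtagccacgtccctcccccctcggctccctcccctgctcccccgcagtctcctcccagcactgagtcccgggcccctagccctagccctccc
Col3a1: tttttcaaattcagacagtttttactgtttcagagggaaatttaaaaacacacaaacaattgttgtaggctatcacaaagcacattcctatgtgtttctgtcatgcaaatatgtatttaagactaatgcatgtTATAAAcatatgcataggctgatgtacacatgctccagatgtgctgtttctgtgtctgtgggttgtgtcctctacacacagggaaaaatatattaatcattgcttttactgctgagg
Rgs5: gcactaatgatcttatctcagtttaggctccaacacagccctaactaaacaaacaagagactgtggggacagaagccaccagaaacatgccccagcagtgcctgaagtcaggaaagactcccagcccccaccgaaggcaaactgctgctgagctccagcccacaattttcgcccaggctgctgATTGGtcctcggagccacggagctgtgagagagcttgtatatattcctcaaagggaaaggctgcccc
RefSeq promoter entries of 300 bases (250 before the start and 50 after) were found for 6 of the 10 genes, namely Col3a1, Rgs5, Col1a2, Slc6a13, Igf2 and Acta2, and were searched on both strands for TATAAA, for CCAAT, for the GC box GGGCGG, for the E box CANNTG and for the CArG box. Before its start Col1a2 held 1 match to CCAAT, beginning 109 bases upstream, and 2 to the GC box. Col3a1 held 1 match to TATAAA, beginning 117 bases upstream, and 4 to the E box, and Rgs5 held 1 to CCAAT on the minus strand, 67 bases upstream. None of these matches overlapped. Among the other entries, 1 of Igf2 held a CArG box match beginning 155 bases upstream and another held CCAAT on the minus strand 231 bases upstream, and 1 of Slc6a13 held CCAAT 115 bases upstream. Of 32851 RefSeq promoters of the same length, 37.4% held CCAAT, 13.6% held TATAAA, 35.7% the GC box, 72.3% the E box and 1.63% the CArG box. Such matches describe letters only and no factor was measured at them.

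Among the proteoglycan genes, Dcn did not share the low level of the collagens in WT replicate 6, and Lum shared it to a lesser degree. Dcn (chromosome 10, 97479609 to 97518143) had from 6.16 through a median of 7.37 to 8.27 RPKM in Dp16_2xIFNRs, from 5.91 through 6.84 to 8.83 in Dp16 and from 5.24 through 7.14 to 8.09 in WT. WT replicate 6 held 7.31 RPKM of it, in the middle of all groups and 105% of the median of the other WT libraries. Lum (chromosome 10, 97565128 to 97572703), the neighbour of Dcn in the genome, had from 0.484 through 0.665 to 0.995 RPKM in Dp16_2xIFNRs, from 0.504 through 0.634 to 0.703 in Dp16 and from 0.472 through 0.661 to 0.708 in WT. For Lum, WT replicate 6 was the lowest of the 18 libraries at 70.8% of the median of the other 5 WT libraries, which lay close together between 0.630 and 0.708.

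Igf2 (chromosome 7, 142650766 to 142666816), which encodes a secreted growth factor and is also known to be made by the choroid plexus, had from 0.963 through 1.09 to 1.39 RPKM in Dp16_2xIFNRs, from 0.920 through 1.02 to 1.67 in Dp16 and from 0.284 through 0.986 to 1.47 in WT. Choroid plexus genes stood out in 2 libraries, with a summed RPKM of 435 in Dp16 replicate 3 and 257 in WT replicate 5, against at most 105 in every other library. Igf2 was 0.936 RPKM in Dp16 replicate 3, near the low end of its group, and 1.47 in WT replicate 5, the highest of its group, and the part of the choroid plexus in these values was not tested. The gene span is overlapped by 3 others, among them the antisense gene Igf2os with 2 to 33 counts a library, and how reads shared with them were counted is unknown, so its counts are uncertain to an extent that was not measured. Slc6a13 (chromosome 6, 121300227 to 121337733), a transporter of GABA and taurine in meningeal cells, had from 3.55 through 4.05 to 5.63 RPKM in Dp16_2xIFNRs, from 3.03 through 4.34 to 5.03 in Dp16 and from 1.49 through 3.85 to 5.52 in WT. The other 5 WT libraries began at 3.28 RPKM, and the 3 genotypes spanned nearly the same range. Col1a2, Col3a1 and Slc6a13 are each overlapped by 1 further annotated gene.

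Mural genes lay closer together across libraries than the collagens. Pdgfrb (chromosome 18, 61045150 to 61085061) had from 5.58 through a median of 6.38 to 7.34 RPKM in Dp16_2xIFNRs, from 4.60 through 6.11 to 6.86 in Dp16 and from 4.99 through 6.96 to 7.42 in WT. All 6 Dp16 values lay under the mean of the 5 other WT libraries, 6.88 ± 0.705 RPKM (SD), although the ranges overlapped. Rgs5 (chromosome 1, 169655501 to 169695813) had from 25.3 through 29.5 to 35.7 RPKM in Dp16_2xIFNRs, from 28.9 through 31.6 to 35.0 in Dp16 and from 27.0 through 34.4 to 36.0 in WT. Acta2 (chromosome 19, 34241090 to 34255590) had from 7.61 through 8.50 to 9.66 RPKM in Dp16_2xIFNRs, from 6.58 through 7.06 to 8.62 in Dp16 and from 6.80 through 7.58 to 10.8 in WT. For Acta2, all 6 Dp16_2xIFNRs libraries lay over the Dp16 mean of 7.27 ± 0.714 RPKM (SD, n = 6), and the 2 highest WT values were 10.8 in replicate 3 and 10.5 in replicate 4.

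None of the 10 genes passed the test in any comparison of genotypes. In Dp16 against WT, 140 of 18717 genes were called by edgeR's quasi-likelihood test with Benjamini-Hochberg adjustment, or 0.748%, and 0 of the 10. Of the 10, 5 lay above WT and 5 below, and their median log2 fold change was -0.022, beside a median of -0.0017 over all tested genes. The values ran from -0.21 for Acta2 (SE 0.115, adjusted p = 0.636) to 0.22 for Igf2 (SE 0.237, adjusted p = 0.887), and none had an unadjusted p under 0.05. DESeq2 and limma-voom called none either, with a smallest adjusted p of 0.601 and 0.685 and no unadjusted p under 0.05. The 95% intervals of the fold ran from 0.659 at the lowest, for Col1a2, to 1.65 at the highest, for Igf2. They were narrower for some genes, with 0.865 to 1.08 for Rgs5 and 0.856 to 1.17 for Dcn. The size of change that could not be resolved thus differed by gene.

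Without WT replicate 6, the median of the 10 was lower and the intervals of the collagen genes narrowed. This library lay under the median of the other WT libraries for 9 of the 10. Leaving it out thus lowers their folds against WT by itself. In that fit 133 of 18877 genes were called, or 0.705%, and again 0 of the 10. The 10 folds had a median log2 of -0.068, with 4 above WT and 6 below, and intervals from 0.663 to 1.28. An unadjusted p under 0.05 was reached by Acta2 (log2 fold change -0.27, SE 0.115, adjusted p = 0.455 by edgeR) and Col1a2 (-0.30, SE 0.138, adjusted p = 0.525 by edgeR). Col1a2 averaged 3.09 ± 0.833 RPKM in Dp16 (SD, n = 6) and 3.79 ± 0.391 in the 5 remaining WT libraries. For Col1a1 the log2 fold change was 0.13 (SE 0.237) with all libraries and -0.046 (SE 0.144) without this one, and for Igf2 it was 0.22 and 0.042.

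In Dp16_2xIFNRs against WT, 196 of 18717 genes were called, or 1.05%, and 0 of the 10, by edgeR, with 0 at an unadjusted p under 0.05. The folds had a median log2 of 0.055, with 7 above WT and 3 below, beside 0.00043 over all genes. The largest was that of Col3a1, at 0.786 ± 0.139 RPKM in Dp16_2xIFNRs and 0.606 ± 0.229 in WT (SD, n = 6 each; log2 fold change 0.36, SE 0.210, adjusted p = 0.555 by edgeR). Without WT replicate 6 its log2 fold change was 0.18 (SE 0.122, adjusted p = 0.592 by edgeR), the median over the 10 was 0.0013, and 270 of 18877 genes were called, or 1.43%, with none of the 10. In that fit Rgs5 alone had an unadjusted p under 0.05, at 30.2 ± 3.46 RPKM in Dp16_2xIFNRs (SD, n = 6) and 33.7 ± 2.91 in the 5 WT libraries (log2 fold change -0.17, SE 0.0751, adjusted p = 0.333 by edgeR). DESeq2 and limma-voom called none of the 10 with all libraries, with a smallest adjusted p of 0.493 and 0.435.

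In Dp16_2xIFNRs against Dp16, few genes were called at all, 4 of 18717 or 0.0214%, and 4 of 18877 or 0.0212% without WT replicate 6. None was among the 10, and by edgeR none had an unadjusted p under 0.05. The median log2 fold change was 0.066, with 7 above Dp16 and 3 below. The largest was that of Acta2, with 8.50 ± 0.756 RPKM in Dp16_2xIFNRs and 7.27 ± 0.714 in Dp16 (SD, n = 6 each; log2 fold change 0.22, SE 0.114, adjusted p = 1 by edgeR). Intervals of the fold ran from 0.702 to 1.53 over the 10. Both comparisons with WT share the WT libraries, and both comparisons of Dp16_2xIFNRs share its libraries.

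**Figure D2:**
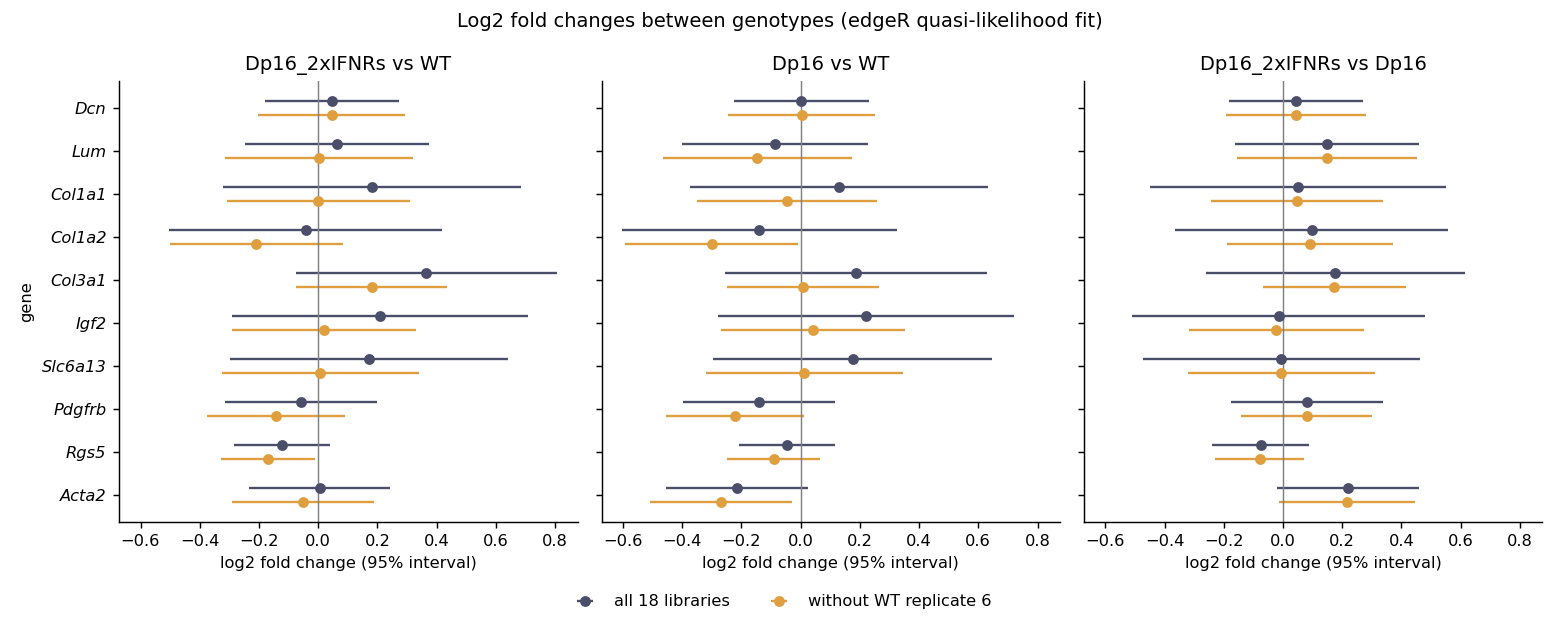
Log2 fold changes (x axis, with 95% intervals) of the 10 genes (rows) for Dp16_2xIFNRs vs WT, Dp16 vs WT and Dp16_2xIFNRs vs Dp16, fitted with all 18 libraries (dark) and without WT replicate 6 (orange). With all 18 libraries, every interval crosses 0, and the intervals of the collagen genes, Igf2 and Slc6a13 are narrower without that library. Without it, the unadjusted intervals of Col1a2 and Acta2 in Dp16 vs WT and of Rgs5 in Dp16_2xIFNRs vs WT lie below 0.

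Between the sexes, the collagen genes were higher in females by point estimate but did not pass the test. In all, 12 of 18717 genes were called between females and males, or 0.0641%, and 13 of 18877 or 0.0689% without WT replicate 6, with 0 of the 10 in both by edgeR. Col3a1 had from 0.620 through a median of 0.822 to 0.999 RPKM in the 9 females and from 0.178 through 0.600 to 0.763 in the 9 males. Its log2 fold change was 0.42 (SE 0.172, adjusted p = 0.741 by edgeR), and all 9 females lay over the male mean. Without WT replicate 6, a male, the males began at 0.555 RPKM, 7 of 9 females lay over the mean of the 8 males, and the log2 fold change was 0.30 (SE 0.0979, adjusted p = 0.855 by edgeR).

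Col1a1 and Col1a2 had the same direction. Col1a1 had from 2.10 through 2.67 to 3.32 RPKM in females and from 0.667 through 2.03 to 2.68 in males, with a log2 fold change of 0.45 (SE 0.193, adjusted p = 0.741 by edgeR) and of 0.33 (SE 0.116, adjusted p = 0.855) without WT replicate 6. For Col1a2 the log2 fold change was 0.39 (SE 0.178, adjusted p = 0.741 by edgeR) and 0.28 (SE 0.111, adjusted p = 0.855) without it. Of the 10 genes, 8 lay higher in females, their median log2 fold change was 0.23, and 3 had an unadjusted p under 0.05 by edgeR, 5 by DESeq2 and 4 by limma-voom, with none called by any of them. Over all tested genes, 51.6% lay higher in females and 6.64% had an unadjusted p under 0.05. Without WT replicate 6, 7 of the 10 lay higher in females, with a median of 0.16 and 3 under an unadjusted 0.05 by edgeR. Over all tested genes these shares were 51.0% and 5.31% in that fit. Lum had from 0.614 through 0.663 to 0.995 RPKM in females and from 0.472 through 0.540 to 0.727 in males (log2 fold change 0.25, SE 0.122, adjusted p = 0.741 by edgeR). Dcn (-0.070), Pdgfrb (-0.051) and Acta2 (0.0072) had log2 fold changes near 0. Without WT replicate 6, the log2 fold changes of Lum, Dcn, Pdgfrb and Acta2 were 0.21, -0.070, -0.10 and -0.029. A term for sex by genotype was not called for any of the 10 or for any gene by edgeR.

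The 10 genes were low to unequal degrees in WT replicate 6, given here as a description. Col3a1 stood at 25.7% of the median of the other 5 WT libraries, Col1a1 at 28.5%, Igf2 at 28.5%, Col1a2 at 32.2% and Slc6a13 at 35.8%. Lum and Pdgfrb stood at 70.8% and 69.8%, Rgs5 at 78.0% and Acta2 at 86.7%, while Dcn stood at 105%. The ratio of Dcn to Col1a1 was 10.96 in this library and between 2.01 and 4.46 in the 17 others. Lum to Col1a1 was 0.709 against 0.200 to 0.332, whereas Igf2 to Col1a1 (0.427) and Col3a1 to Col1a1 (0.266) lay within the ranges of the other libraries (0.401 to 0.535 and 0.229 to 0.410). Slc6a13 to Col1a1 was 2.23, within 1.40 to 2.46, and Col1a2 to Col1a1 was 1.82, above the 1.12 to 1.66 of the others.

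**Figure D3:**
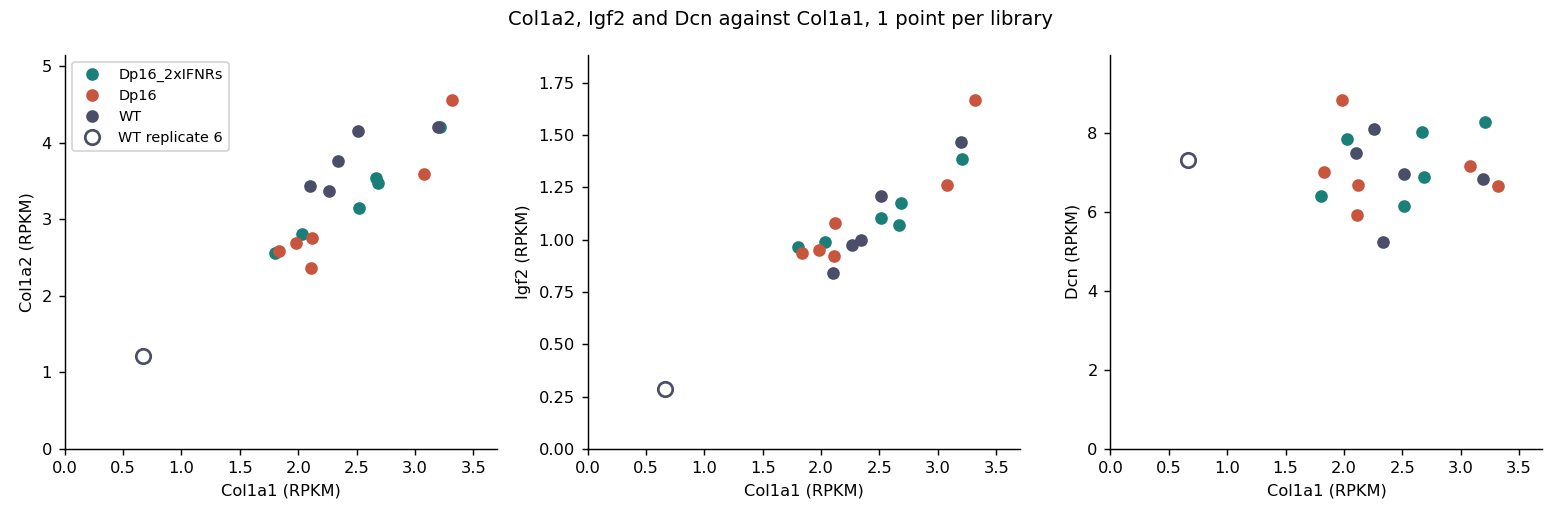
RPKM of Col1a2, Igf2 and Dcn (y axes) against Col1a1 (x axes), 1 point per library, coloured by genotype, with WT replicate 6 as an open circle. Col1a2 and Igf2 fall with Col1a1 in WT replicate 6, whose Dcn of 7.31 RPKM stays among the other libraries.

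Genes of other cell types, of the brain's border and of the cortex itself, were low in the same library. Of 49 other meningeal fibroblast genes, 35 were lowest of the 18 libraries in WT replicate 6, 22 lay more than 1 log2 unit under the median of the other WT libraries, and their summed level was 111 RPKM there against 171 to 192 in the other 5. Of 11 border macrophage genes 8 were lowest there, of 17 endothelial genes 11, of 33 other mural genes 8, of 13 choroid plexus genes 4, of 10 microglia genes 9 and of 11 astrocyte genes 9, beside 12.4% of all tested genes. Their median log2 differences were -0.77, -0.43, -0.37, -0.64, -0.55 and -0.44, next to -0.95 for the other meningeal fibroblast genes and -1.04 for the 10 genes. Oligodendrocyte genes had a median of -0.11, striatal genes of -0.15 and all tested genes of -0.00072. Their part in the low values of the 10 genes was not tested.

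**Figure D4:**
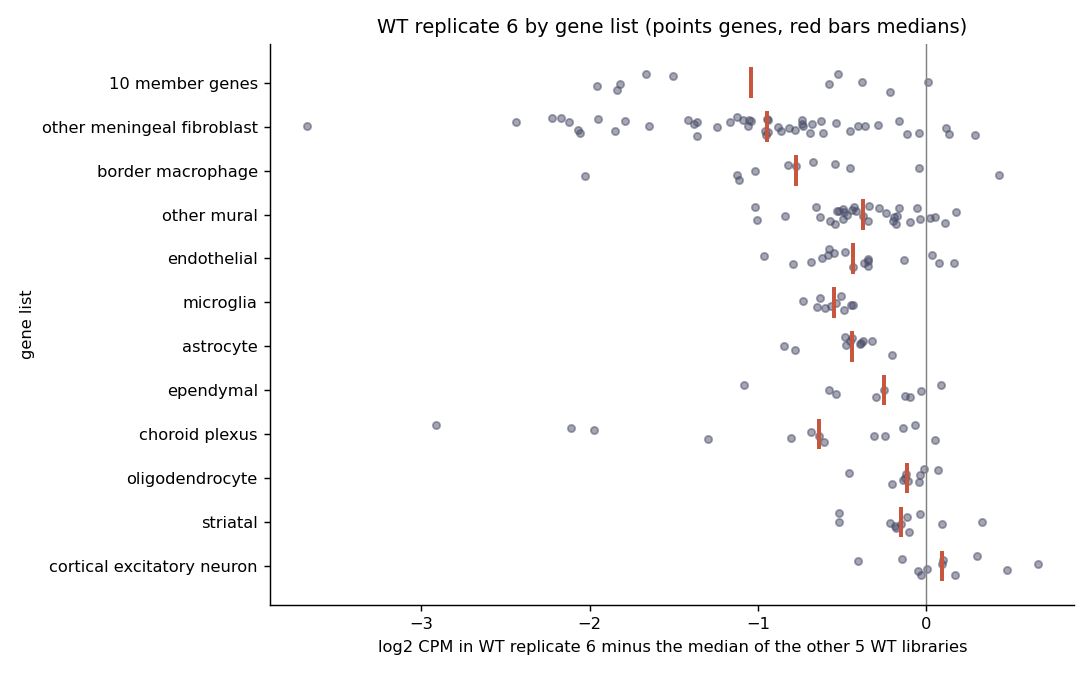
Log2 CPM (counts scaled to the library total) in WT replicate 6 minus the median of the other 5 WT libraries (x axis) for the genes of 12 lists (rows); each point is a gene and each red bar a median. The 10 member genes, which were known to be low in this library when they were taken, have a median of -1.04. Other meningeal fibroblast genes lie at -0.95, border macrophage genes at -0.77 and choroid plexus genes at -0.64, and cortical excitatory neuron genes lie near 0 (0.092).

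The same library carried much of the spread of these genes within genotypes. The SD of log2 CPM about the genotype means was 0.54 for Col1a1, 0.53 for Igf2, 0.52 for Col3a1, 0.48 for Col1a2 and 0.44 for Slc6a13 over 18 libraries, and 0.31, 0.28, 0.25, 0.28 and 0.28 over the 17 without WT replicate 6. Lum (0.27), Pdgfrb (0.23), Acta2 (0.21), Dcn (0.20) and Rgs5 (0.16) varied less, and theirs were 0.25, 0.20, 0.20, 0.21 and 0.14 without it. The median over all tested genes was 0.166 and 0.159. Of all tested genes, 8.91% had a larger SD than Col1a1 with all libraries and 26.6% without WT replicate 6.

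Of the 7 fibroblast genes, 6 had similar deviations across libraries and Dcn did not. Pearson's r between each gene's log2 deviations from its genotype means and the mean of the other fibroblast genes, given as a description over libraries of 1 series, was 0.95 for Col1a2, 0.94 for Col1a1, 0.91 for Igf2, 0.88 for Slc6a13, 0.86 for Col3a1 and 0.76 for Lum over 18 libraries. Dcn had an r of 0.057. Over the 17 libraries without WT replicate 6, r was 0.92, 0.90, 0.82, 0.67, 0.66 and 0.75 for the same 6 genes in that order, and 0.16 for Dcn. The 3 mural genes were less alike, with r against the mean of the other mural genes of 0.73 for Rgs5, 0.53 for Acta2 and 0.44 for Pdgfrb over 18 libraries, and 0.62, 0.43 and 0.26 over 17. Over 18 libraries the pattern was not particular to the fibroblast genes, while over 17 it was weaker in the mural genes. Against the fibroblast mean, r was 0.71 for Rgs5, 0.51 for Pdgfrb and 0.34 for Acta2 over 18 libraries, and 0.57, 0.17 and 0.033 over 17. Against the mural mean, r was 0.62 for Col1a1, 0.60 for Col1a2 and 0.59 for Col3a1 over 18 libraries, and 0.33, 0.29 and 0.23 over 17.

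The genes most like the mean of the fibroblast genes over 18 libraries were Fmod (r = 0.963), Aebp1 (0.963), Bmp6 (0.961), Slc13a4 (0.960), Myoc (0.957), Slc13a3 (0.954), Slc6a20a (0.944) and Mpzl2 (0.935). Fmod encodes the proteoglycan fibromodulin, Bmp6 a bone morphogenetic protein, Slc13a4 a sulfate transporter, Slc13a3 a dicarboxylate transporter and Myoc myocilin. Of the 8, 5 were on the list of other meningeal fibroblast genes, and 7 were again among the 8 most alike over 17 libraries. Fmod had 1.69 RPKM in WT replicate 6 against 5.80 to 9.54 in the other 5 WT libraries, and Mpzl2 had 0.0285 against 0.309 to 0.457. For the mural genes the 8 most alike included Qk (r = 0.931), Lims1, Prkd3, Rnf213, Megf10, Parp14 and Myo10 (0.869), and Qk, Lims1 and Rnf213 were again among the 8 most alike over 17 libraries.

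Related matrix, growth factor and transporter genes gave 0 calls in any of the 4 comparisons, with or without WT replicate 6, by edgeR. Over all tested genes, an unadjusted p under 0.05 was reached by 11.5% in Dp16_2xIFNRs against WT and 8.84% in Dp16 against WT, and by 12.9% and 9.09% without WT replicate 6. In Dp16 against WT the 49 other meningeal fibroblast genes had 23 above WT and 26 below, a median log2 fold change of -0.035 and 5 with an unadjusted p under 0.05. With that library left out they had 12 above and 37 below, with a median of -0.13 and 7 under 0.05. WT replicate 6 lay under the median of the other WT libraries for 46 of the 49. Leaving it out thus lowers folds against WT by itself. In Dp16_2xIFNRs against WT the median was 0.066 with all libraries and -0.021 without that one, with 5 and 11 under 0.05. Between the sexes 46 of the 49 lay higher in females, with a median of 0.26, 20 under an unadjusted 0.05 and none called, and 45 did so without WT replicate 6, with a median of 0.17 and 19 under 0.05. The best expressed of these genes were Igfbp2, which encodes a binding protein of insulin-like growth factors, with 32.0 ± 2.64 RPKM in Dp16 and 25.2 ± 5.41 in WT (log2 fold change 0.34, adjusted p = 0.195, and 0.23 with an adjusted p of 0.0577 without WT replicate 6), and Mgp, the matrix Gla protein, with 18.1 ± 1.82 and 17.4 ± 3.42 RPKM (0.042, adjusted p = 0.970; SD, n = 6 each, edgeR).

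The 33 other mural genes had a median log2 fold change of -0.039 in Dp16 against WT with 2 under an unadjusted 0.05, and of -0.085 with 7 under 0.05 without WT replicate 6. In Dp16_2xIFNRs against WT the medians were -0.046 and -0.11, with 4 and 5 under 0.05. WT replicate 6 lay under the median of the other WT libraries for 29 of the 33. Vtn, which encodes vitronectin, had 51.1 ± 5.74 RPKM in Dp16 and 49.7 ± 7.89 in WT (SD, n = 6 each). The 5 genes of PDGF ligands and the other receptor had a median of 0.0057 in Dp16 against WT and of -0.063 without WT replicate 6, and Pdgfb, whose product recruits pericytes through PDGFRB, had 11.2 ± 2.16 RPKM in Dp16 and 10.8 ± 2.01 in WT (log2 fold change 0.039, adjusted p = 0.972 by edgeR).

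Most other fibrillar collagens were not low in WT replicate 6. None of the 8 was lowest there, and their median log2 difference from the other WT libraries was 0.27. Of the 8, 2 lay below 0, Col5a2 at -0.48 and Col2a1 at -0.19, and Col5a1 was the highest at 0.64. Col5a1, a type V collagen chain, had 4.54 RPKM in WT replicate 6, with 4.86 ± 2.09 RPKM in Dp16 and 3.44 ± 1.15 in WT (SD, n = 6 each; log2 fold change 0.49, adjusted p = 0.665 by edgeR). Of 8 other tested proteoglycan genes 6 were lowest in WT replicate 6, and Prelp had 13.6 ± 2.35 RPKM in Dp16_2xIFNRs, 13.2 ± 2.14 in Dp16 and 9.44 ± 1.67 in WT, with a log2 fold change against WT of 0.51 (adjusted p = 0.152) in Dp16_2xIFNRs and 0.48 (adjusted p = 0.266) in Dp16 by edgeR. Of the 23 genes of collagen maturation, 17 lay above WT in Dp16 and 6 below with a median of 0.089, and 13 above and 10 below with a median of 0.069 without WT replicate 6. The 14 basement membrane genes had a median of 0.023 with all libraries and of -0.040 without that one, and the 12 insulin-like growth factor genes of -0.00076 and -0.011. The 5 GABA and betaine transporter genes related to Slc6a13 had a median of 0.038 and of 0.022 without WT replicate 6.

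Among the neighbouring cell types, 2 of 11 border macrophage genes were called in Dp16 against WT, beside 0.748% of all tested genes, and 1 of 11 without WT replicate 6, beside 0.705%, by edgeR. In Dp16_2xIFNRs against WT none of the 11 was called, with 1 under an unadjusted 0.05 by edgeR in either fit. Siglec1, a receptor of macrophages, had 0.121 ± 0.0563 RPKM in Dp16 and 0.0472 ± 0.0255 in WT (log2 fold change 1.37, SE 0.295, adjusted p = 0.0270 by edgeR), and was called without WT replicate 6 too (1.19, adjusted p = 0.0386). Folr2, a folate receptor of resident macrophages, had 0.413 ± 0.0614 RPKM in Dp16 and 0.186 ± 0.0763 in WT (1.12, SE 0.254, adjusted p = 0.0386), and was not called without that library (adjusted p = 0.0972). Both levels were low. In WT replicate 6 the log2 difference from the median of the other WT libraries was -2.03 for Siglec1 and -0.45 for Folr2. The 17 endothelial genes held 0 calls, with 2 under an unadjusted 0.05, 10 above and 7 below and a median of 0.026 in Dp16 against WT by edgeR. Without WT replicate 6 these were 3 under 0.05, 6 above and 11 below and a median of -0.057. That library lay under the median of the other WT libraries for 14 of the 17. Microglia genes held 0 calls with all libraries in both comparisons with WT, with 4 of 10 under an unadjusted 0.05 in Dp16_2xIFNRs and 3 in Dp16 by edgeR. Without WT replicate 6, 3 of the 10 were called lower in Dp16_2xIFNRs, beside 1.43% of all tested genes, and 3 of 10 in Dp16, beside 0.705%, by edgeR. WT replicate 6 was the lowest of 18 libraries for 9 of these 10 genes, so leaving it out raised their WT level in that fit. P2ry12, a purinergic receptor of microglia, had log2 fold changes of -0.45 in Dp16_2xIFNRs (adjusted p = 0.00621) and -0.40 in Dp16 (adjusted p = 0.0223) in that fit. Sall1, a transcription factor of microglia, had -0.33 (adjusted p = 0.0262) and -0.34 (adjusted p = 0.0286), and Gpr34, a lysophospholipid receptor, was called in Dp16 at -0.44 (adjusted p = 0.0191), by edgeR. Of 10 oligodendrocyte genes 1, Mal, was called in Dp16_2xIFNRs against WT, beside 1.05% of all tested genes, with a log2 fold change of 0.55 (adjusted p = 0.00397), and of 0.53 (adjusted p = 0.0147) without WT replicate 6, by edgeR. Among the 7 red blood cell genes, the 9 ependymal genes and the 13 choroid plexus genes tested, none was called in either comparison with WT, with 1, 2 and 0 under an unadjusted 0.05 in Dp16_2xIFNRs and 3, 1 and 1 in Dp16 by edgeR, and none was called without WT replicate 6 either.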

How the data were processed

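Cortex RNA of 18 mice was measured, 6 of each genotype, with groups, sex and age taken from the labels. Per the labels' protocols, TRIzol extraction and selection of polyadenylated RNA came before a strand-specific Tecan/Nugen library kit and paired-end sequencing. Per the submitters' processing notes, the build was GRCm38 and the tools included HTSeq 0.6.1, SAMtools 1.5, HISAT2 2.1.0, FastQC 0.11.5 and bcl2fastq. The strand setting of the counting, like its treatment of reads matching several genes, is not given in the sources used here, so values of overlapping genes are uncertain. Raw gene counts were deposited by the authors. The authors also deposited RPKM values, and in 31735 of 31735 genes counted in at least 2 libraries these equal count over library total over 1 gene length, within a relative tolerance of 1e-06. Library totals stand in the report, and the fit's common biological coefficient of variation was 12.2%, with 14 residual degrees of freedom.

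Counts were filtered with filterByExpr (minimum count 10, 18717 genes kept), normalized by TMM and tested with edgeR 4.0.16 (quasi-likelihood F test, robust, terms genotype and sex, all 18 libraries, R 4.3.3), with Benjamini-Hochberg adjustment over all genes tested and a call at an adjusted p below 0.05. SE is the standard error of a log2 fold change, and RPKM means carry their SD. Without WT replicate 6, filter and fit were repeated (18877 genes). Alternatives were DESeq2 1.42.0, limma 3.58.1 with voom or on log2(RPKM + 0.1) and log2(RPKM + 1), other scalings, filters and terms, a replicate block, and each library left out. The code was tested on simulated counts. Likeness used log2 CPM (prior count 2) less genotype means. Positions come from GENCODE M21 of the same build and promoters from RefSeq.

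The members and the 19 other gene lists were chosen with earlier results of these data known. Named were all 10 members, up to 4 called genes per list and comparison by smallest p, or else up to 2 of the best expressed as values, and the 8 genes most like each mean; not every such gene is described, and some are not reported here. The labels give 1 sample per library, and p-values measure the spread between these samples, which may be partly technical.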

Additional observations from a re-analysis of the deposited data

Results flagged for a closer look

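In groups of 6 libraries, a sample was singled out when its gap to the nearest other sample was large for the range of the group (Dixon's criterion at 95%). This was applied to 87 groups, the 10 genes and the summed RPKM of 19 lists in each genotype, and 10 samples were singled out. Chance flags about 1 in 20 groups. The proteoglycan and other meningeal fibroblast lists share genes, so their flags are not independent.

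WT replicate 6 was known to be low in these markers when they were taken, so its flags are a description. Of the 10 samples singled out, 6 were this library. It held 0.472 RPKM of Lum and 1.21 RPKM of Col1a2, a summed 111 RPKM of other meningeal fibroblast genes, 17.3 RPKM of proteoglycan genes, 1082 RPKM of astrocyte genes and 122 RPKM of microglia genes, each under the other 5 WT libraries. Col1a1, Col3a1, Igf2 and Slc6a13 were at their lowest there too without being singled out by this criterion. The choroid plexus sum was 435 RPKM in Dp16 replicate 3 and 257 RPKM in WT replicate 5, above the rest of their groups. The endothelial sum was 303 RPKM in Dp16 replicate 4, against at most 247 in the other Dp16 libraries. The border macrophage sum was 6.41 RPKM in Dp16_2xIFNRs replicate 6, against at least 8.08 in the others of that genotype.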

How the results depend on the processing

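None of the 10 genes was called in any of 31 alternatives per comparison of genotypes or 30 for sex. The smallest adjusted p among these 1230 values was 0.214, for Rgs5 in Dp16_2xIFNRs against WT without Dp16_2xIFNRs replicate 3 (edgeR). The sign changed in 63 of them, within 14 of 40 gene and comparison pairs, and none of those was called. Counts over all genes moved more. DESeq2 called 250 genes in Dp16 against WT, 405 in Dp16_2xIFNRs against WT and 21 between the sexes, and the cause was not tested. With each library left out in turn, the counts ran from 102 to 147, from 121 (without Dp16_2xIFNRs replicate 2; 125 without WT replicate 2) to 270, from 3 to 4 (Dp16_2xIFNRs against Dp16) and from 12 to 13 (sex). A replicate block gave 304 calls in Dp16_2xIFNRs against WT and 168 in Dp16 against WT. The shared numbers were not taken as pairs, since the labels do not say what a number marks and not all same-number pairs had a correlation of deviations over 0.1. The data hold a hint of pairing, with 11 of 18 same-number pairs over 0.1 (median 0.178), against 15 of 90 other pairs (median -0.035), and 11 of 18 libraries correlated best with their own number. Part of the sample names was shared by replicate 1 of every genotype, whose pairs had correlations of 0.308 to 0.428. Some other libraries shared such a part in some genotypes only, and what it marks is not given. The replicate block was used in no permutation test of a ratio, so those tests took the libraries as unpaired. Alternatives with WT replicate 6 left out of limma-voom and with a term for sex by genotype were chosen after seeing the data. With 6 libraries a group, intervals of the fold for the collagen genes, Igf2 and Slc6a13 reached from about 0.66 to 1.75.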

Other observations

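The balance of the 2 chains of type I collagen was compared between genotypes. This ratio was noticed after the values had been seen. Col1a2 to Col1a1, as a ratio of RPKM, had a geometric mean of 1.33 in Dp16_2xIFNRs, 1.28 in Dp16 and 1.58 in WT, or 1.54 in WT without replicate 6. Its range was 1.25 to 1.42 in Dp16_2xIFNRs libraries, 1.12 to 1.41 in Dp16 libraries and 1.32 to 1.82 in WT libraries. Two-sided exact permutation tests over 924 arrangements gave p = 0.00866 for Dp16 against WT and p = 0.0108 for Dp16_2xIFNRs against WT, and 0.0195 and 0.0152 over 462 arrangements without WT replicate 6. Over the 24 ratio comparisons made, the Benjamini-Hochberg adjusted values were 0.0866 for both with all libraries and 0.156 for both without WT replicate 6, so neither passed. As the ratio was noticed in these same values, its p-values are a description and no support for a difference.

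The ratio of Acta2 to Rgs5, also picked after its values had been seen, had a geometric mean of 0.283 in Dp16_2xIFNRs and 0.229 in Dp16. This was the 1 comparison of the 24 in which the libraries of the groups did not overlap, with 0.255 to 0.308 in Dp16_2xIFNRs and 0.202 to 0.247 in Dp16, and WT lay across both at 0.208 to 0.303. The exact permutation p was 0.00216, the smallest that 924 arrangements allow and the value that any such separation gives. Adjusted over the 24 comparisons it was 0.0519, so it did not pass either. As the ratio was picked from these same values, neither p-value is support for a difference.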
